A study of Nematostella vectensis with 10 samples.

Results

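Of 24520 gene models in *Nematostella vectensis*, 120 met a rule for a shift in the balance among their own transcript models after knockdown of *NvpaxA*. A transcript model is one annotated RNA of a gene, and its share is its estimated read count divided by the count summed over all models of that gene. Genes entered when they had 2 or more models and at least 50 summed reads in each of the 10 libraries, which 4141 genes did out of 5386 with 2 or more models. A gene was kept when the share of a model differed in the same direction in all 5 same-numbered pairs of libraries and by 10 percentage points or more on average. *NvpaxA* itself was left out. The members are therefore chosen by the shares described below, so those shares carry no test and support nothing by themselves.

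The libraries were polyA RNA of whole wild type gastrulae of this sea anemone, raised at 24 °C and collected at 28 hours post fertilization. The 5 knockdown libraries came from embryos that received 1 short hairpin RNA (shRNA) directed at *NvpaxA*, and the 5 control libraries from embryos that received a scramble RNA. Each replicate was a separate pool of about 1000 embryos, and replicates 1 and 2 of each group carry the batch label LA61 while replicates 3 to 5 carry LA70. The RNA was injected, not expressed from a promoter, so the knockdown was not directed at a cell type.

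*NvpaxA* encodes a paired-box transcription factor that acts in the development of cnidocytes, the stinging cells of cnidarians. A gene can give several RNAs by starting at another promoter, joining other exons or ending at another polyadenylation site, and the resulting proteins or untranslated regions can differ. Short reads often match several RNAs of a gene, and Salmon, the quantifier the authors used, divides such reads among them by an estimate. A share is thus an estimate of a division, and it can be unstable where models are nearly alike. In bulk RNA of whole embryos, fewer cells of a type and less RNA per cell cannot be told apart, and neither can a change of RNA processing within cells and a change in which cells are present. The gene models of the members are not paired with names in the sources used here, so they are given by identifier and ordered by pattern, and no function is attached to them.

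The libraries held 20037579 to 26883859 estimated counts. *NvpaxA* (NV2t006786) had 102 ± 14.6 CPM (estimated counts scaled to the size of the library; SD, n = 5) in the control libraries and 17.5 ± 5.05 in the knockdown libraries. The highest knockdown library had 23.1 CPM and the lowest control library 79.2, so every library matched its label (log2 fold change −2.54 ± 0.19 SE, edgeR quasi-likelihood test, adjusted p = 6.95e-06). The 37 other listed cnidocyte genes that the study pairs with an NV2 identifier (those without one were not analysed here) summed to 1860 to 2642 CPM in the knockdown libraries and 2166 to 2742 in the controls, 1 of them being at 0 in at least 1 library. Of these 37, 6 have more than 1 model, 5 passed the read minimum and none was a member. The largest mean share difference of any model was 0.327 points in *znf845*, 0.428 in *foxA*, 1.44 in *coup-like1*, 2.58 in *foxL2* and 6.69 in NVE5730. In NVE5730 the difference ran in the same direction in all 5 pairs, from 37.4% in the controls to 30.7% in the knockdown, but stayed under the 10-point minimum.

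The 120 members were 2.9% of the genes that passed the read minimum. A model with the same direction in all 5 pairs, whatever its size, was found in 559 genes, or 13.5%. A mean difference of 10 points or more was found in 405 genes, of which 285 did not hold one direction across the pairs. Among those 285 the largest mean difference was 55.8 points, and 3 exceeded the largest of any member. The size of a mean difference alone thus did not mark out the members. In 59 members 1 model met the rule, in 60 members 2 models did, and in 1 member more than 2 did, giving 183 models in all.

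The leading model of a gene is the one with the largest mean difference among its models that met the rule. Its mean share difference had a median of 14.3 points and ran from 10.1 to 46.2. It was 10 to 15 points in 64 members, 15 to 20 points in 32 and 20 points or more in 24, of which 7 reached 30. The leading model had the higher share after knockdown in 62 members and the lower share in 58. The spread among libraries of a group (pooled SD) had a median of 8.02 points for these models. It was 6.82 points over the 5719 models of all genes past the read minimum with a mean share between 10% and 90%. The difference was at least 2 pooled SD in 52 members and under 1 in 9. The shares of the leading model did not overlap between the groups in 38 members and overlapped in 82. A model with shares that did not overlap was found in 93 of all 4141 genes, or 2.25%; since the rule selects such genes, nothing is read from the contrast.

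The largest difference in percentage points was in NV2t025184, whose pair of models are 5705 and 5745 bases long. The share of NV2t025184001.1 was 57.7, 36.9, 56.1, 44.3 and 52.8% in control replicates 1 to 5, and 98.2, 94.2, 94.9, 93.7 and 97.9% in knockdown replicates 1 to 5. By the estimate, reads were divided about evenly between the models in the controls. In every knockdown library nearly all were assigned to the shorter one, with no overlap. The models are close in length and their sequences were not compared here, so how many reads tell them apart is not known. The mean share was 49.6 ± 8.8% and 95.8 ± 2.1% (SD, n = 5). The level of the longer model, NV2t025184002.1, was 29.5 ± 6.43 CPM in the controls and 1.45 ± 0.784 in the knockdown libraries. That model fell (log2 fold change −4.35 ± 0.37 SE), while NV2t025184001.1 had 29.3 and 33.2 CPM and was not called.

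In NV2t020912, with 3 models, NV2t020912003.1 held 50.03, 59.3, 67.7, 52.0 and 54.5% of the reads in the controls and 6.52, 17.8, 9.98, 9.63 and 14.5% after knockdown. The groups did not overlap, and the model that led in every control library was the smallest of the 3 in every knockdown library. The largest gain was that of NV2t020912001.1, which led in 4 of the 5 knockdown libraries, all but replicate 2, and held 10.9 ± 8.3% in the controls and 49.8 ± 7.6% after knockdown. The level of NV2t020912003.1 fell from 13.9 ± 1.39 to 2.64 ± 1.063 CPM (log2 fold change −2.40 ± 0.26). NV2t020912001.1 had 2.66 CPM in the controls, where 1 library was at 0, and 11.2 after knockdown (2.06 ± 0.74, not called). The total of the gene was 24.8 ± 2.76 and 22.6 ± 3.24 CPM, a difference within the spread of the libraries.

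In NV2t018311, NV2t018311001.1 held 73.5, 87.2, 83.9, 75.9 and 84.8% in the controls and 41.0, 40.2, 29.7, 46.0 and 46.6% after knockdown. The groups were far apart, and the other model, NV2t018311002.1, led in all 5 knockdown libraries. NV2t018311001.1 fell from 75.2 to 9.51 CPM (log2 fold change −2.98 ± 0.27), while NV2t018311002.1 had 16.4 ± 4.4 and 14.6 ± 5.9 CPM. Here the lower share came with a lower gene total, given below.

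In NV2t007729, NV2t007729002.1 held 56.4, 52.8, 46.0, 63.5 and 48.9% in the controls and 83.9, 85.6, 86.4, 88.1 and 82.8% after knockdown. All 5 knockdown libraries lay above all controls, and the 3 other models had lower mean shares. NV2t007729002.1 rose from 28.7 ± 2.2 to 50.3 ± 3.5 CPM (log2 fold change 0.80 ± 0.09) and NV2t007729004.1 fell from 13.7 to 3.84 CPM (−1.84 ± 0.21). The gene total was 54.0 CPM in the controls and 59.0 after knockdown (0.13 ± 0.08, not called).

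NV2t012871, also among the 10 largest shifts, is described with the totals, and the shares of the other 5 varied more among libraries. In NV2t013732 the share of NV2t013732005.1 was 46.1, 45.0, 54.2, 86.2 and 65.04% in the controls and 0, 39.7, 39.8, 16.9 and 0% after knockdown. The groups did not overlap, but the gene had only 3.61 and 3.28 CPM. In its shallowest library, control replicate 5, the share rested on 39 of 60 reads, with a 95% Wilson interval of 52.4 to 75.8%. Such an interval covers counting error only, not the division of shared reads among models. In NV2t018325, NV2t018325001.1 was at 90.9, 100, 100, 86.8 and 86.3% in the controls and 55.6, 77.1, 87.0, 0 and 72.9% after knockdown. The groups overlapped, and knockdown replicate 4, where the model was at 0, stood apart from the other 4 (mean difference −21.2 points without pair 4 and −34.3 with it).

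In NV2t013910 the share of NV2t013910003.1 was 84.4, 89.0, 100, 72.9 and 59.9% in the controls and 74.4, 6.51, 51.7, 58.1 and 56.9% after knockdown, so the groups overlapped (mean difference −19.1 points without pair 2 and −31.7 with it). Another of its models, NV2t013910001.1, was at 0 in all 5 controls and at 19.5, 50.8, 25.8, 0 and 43.1% after knockdown, from 134 reads in all. This was also a gene of low level, with 53 reads in its shallowest library. In NV2t020578, NV2t020578002.1 held 18.9, 0, 24.8, 0 and 20.3% in the controls and 40.6, 53.8, 41.8, 31.8 and 37.4% after knockdown, without overlap. The gene total of NV2t020578 was 40.0 and 42.2 CPM. In NV2t002800, NV2t002800001.1 held 22.6, 79.6, 39.0, 17.1 and 38.3% in the controls and 53.4, 100, 48.4, 38.4 and 87.8% after knockdown. Here the groups overlapped widely and only the comparison within pairs had one direction.

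**Figure D1:**
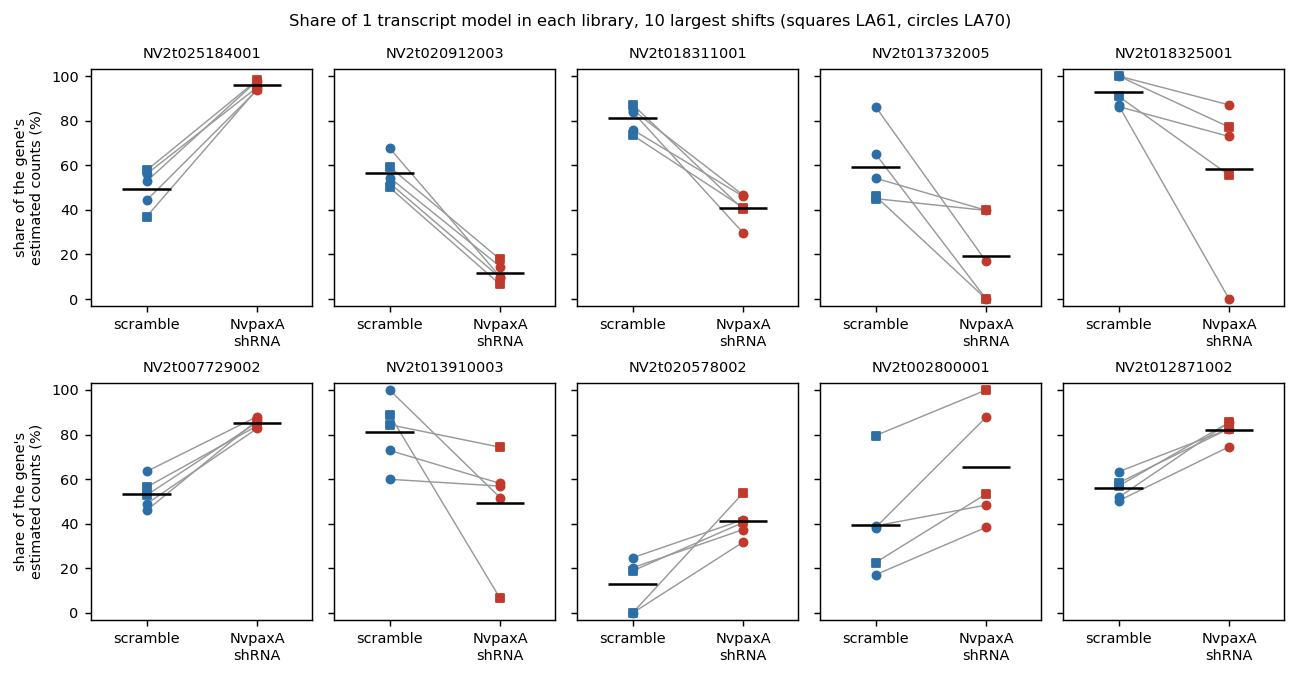
Share of the gene's reads (percent) held by the leading model in each of the 10 libraries, for the 10 members with the largest mean difference; each point is a library (squares LA61, circles LA70), lines join same-numbered control and knockdown libraries and black bars are group means (n = 5). In NV2t025184 the knockdown libraries lie at 93.7 to 98.2% and the controls at 36.9 to 57.7%, while in NV2t018325, NV2t013910 and NV2t002800 the groups overlap.

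The totals of the members were compared to show whether a shift of shares came with a change in the level of the gene. With the edgeR quasi-likelihood test over all 19110 genes tested, and a call set at an adjusted p of at most 0.05 with at least a 1.5-fold difference, 5 of 120 totals were called lower and 1 higher, and 114 were not called. Over all genes tested the same calls were 0.842% lower and 0.387% higher, and over the genes past the read minimum 0.411% lower and 0.362% higher. Shares and totals come from the same libraries and the same contrast, so nothing is read from the counts. The absolute log2 fold change of the total had a median of 0.12 in the members and 0.099 over the 4141 genes, and it was under 0.2 in 83 members. The largest mean share difference of any model, whether or not it met the rule, was set against the absolute change of the total. Across the 4141 genes these had a Pearson correlation of 0.144 and a Spearman correlation of 0.0814. Across the 120 members the values were 0.328 and 0.113. These correlations are across genes, which are not independent, and the points share their libraries and read depth. The totals were lower in all 5 pairs in 13 members (10.8%) and higher in all 5 in 10 (8.33%), against 6.47% and 7.75% of the 4141 genes. No member had a total lower by 4 times or more in every pair.

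**Figure D2:**
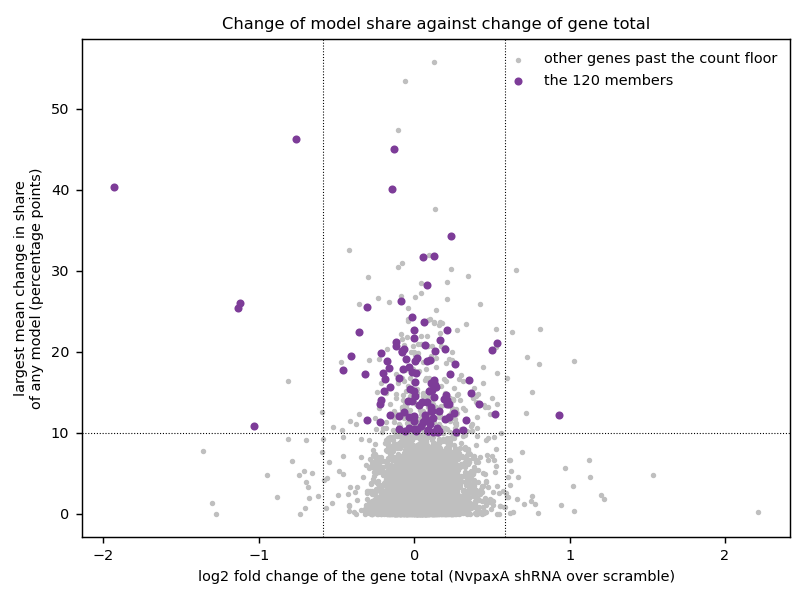
Largest mean share difference of any model of a gene, whether or not it met the rule (percentage points), against the log2 fold change of the gene total. The 4141 genes past the read minimum are shown, with the 120 members in purple, the other genes in grey and dotted lines at 10 points and at the 1.5-fold limits. Most members lie close to 0 on the axis of the total, and 83 of 120 have an absolute log2 fold change under 0.2.

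In all 5 members with a lower total the model that lost the most share was called lower, and the model that gained the most was not called. The total of NV2t018311 was 70.5, 76.2, 119, 59.3 and 134 CPM in control replicates 1 to 5 and 23.7, 19.8, 34.5, 15.6 and 26.7 in the knockdown libraries. The groups were well apart (log2 fold change −1.93 ± 0.25), and the fall lay in NV2t018311001.1. The total of NV2t025184 was 58.5, 63.9, 67.6, 44.2 and 59.8 CPM in the controls and 35.6, 39.9, 41.9, 23.4 and 32.7 in the knockdown libraries. All knockdown libraries lay below all controls (−0.76 ± 0.16).

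In NV2t016360, NV2t016360001.1 held 19.7, 17.0, 23.5, 26.7 and 26.2% in the controls and 43.8, 56.8, 36.8, 54.5 and 48.0% after knockdown, without overlap. Its level was 10.03 ± 1.8 CPM in the controls and 9.69 ± 2.0 after knockdown. The other model, NV2t016360002.1, fell from 34.5 to 10.6 CPM (log2 fold change −1.71 ± 0.16), and with it the total from 44.5 ± 4.12 to 20.3 ± 3.04 CPM (−1.13 ± 0.12). The model whose share was higher after knockdown thus had about the same level in both groups.

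In NV2t012871, NV2t012871002.1 held 56.9, 58.4, 50.3, 63.3 and 51.8% in the controls and 85.4, 82.7, 74.6, 82.5 and 85.5% after knockdown. The groups did not overlap. NV2t012871004.1 fell from 9.27 ± 1.2 to 1.09 ± 0.74 CPM (log2 fold change −3.10 ± 0.42), and NV2t012871002.1 had 15.8 and 10.7 CPM. The total fell from 28.1 ± 1.91 to 12.9 ± 2.79 CPM (−1.12 ± 0.14).

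In NV2t009990 the model that lost share was also the main one. NV2t009990001.1 held 88.7, 90.7, 93.1, 90.0 and 90.6% in the controls and 75.9, 81.1, 82.3, 80.9 and 78.8% after knockdown, without overlap. It fell from 210 ± 57 to 90.7 ± 21 CPM (−1.22 ± 0.22), a call kept in 4 of the 10 fits that left out a library (−1.33 to −1.08), and the total fell from 232 ± 59.7 to 114 ± 26.1 CPM (log2 fold change −1.03 ± 0.20). NV2t009990004.1, the model with the largest gain of share, had 8.21 and 11.9 CPM.

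The member with a higher total was NV2t006060. NV2t006060002.1 held 80.3, 72.9, 73.1, 74.9 and 72.1% in the controls and 87.7, 89.1, 86.8, 89.1 and 81.6% after knockdown. The groups did not overlap, with control replicate 1 the nearest to the knockdown libraries. That model rose from 12.7 ± 0.96 to 28.3 ± 1.9 CPM (log2 fold change 1.15 ± 0.09), and the total from 17.1 ± 1.62 to 32.6 ± 2.05 CPM (0.93 ± 0.10). It is 6799 bases long, against 3279 for NV2t006060005.1, which lost the most share. In the fit with an offset for effective length the total was also called, at a smaller 0.72 ± 0.11.

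The called totals of NV2t016360 and NV2t006060 held in every alternative fit. Those of NV2t025184 and NV2t009990 were lost when knockdown replicate 1 or 5, or control replicate 2, 3 or 5, was left out. The log2 fold changes were then −0.77 to −0.71 and −1.07 to −0.93. That of NV2t025184 was also lost without control replicate 1 (−0.76). These fits, and those of LA70 alone, had group as the only term and did not use the pairs. With the replicate block and all libraries, both totals were called, at −0.77 ± 0.07 in NV2t025184 and −1.02 ± 0.08 in NV2t009990. The standard errors without the block were 0.16 and 0.20. In LA70 alone, with 3 libraries a group, 4 of the 5 lower totals had values of −0.82 ± 0.24 (NV2t025184), −2.03 ± 0.37 (NV2t018311), −1.01 ± 0.17 (NV2t012871) and −1.16 ± 0.32 (NV2t009990) that were not called.

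**Figure D3:**
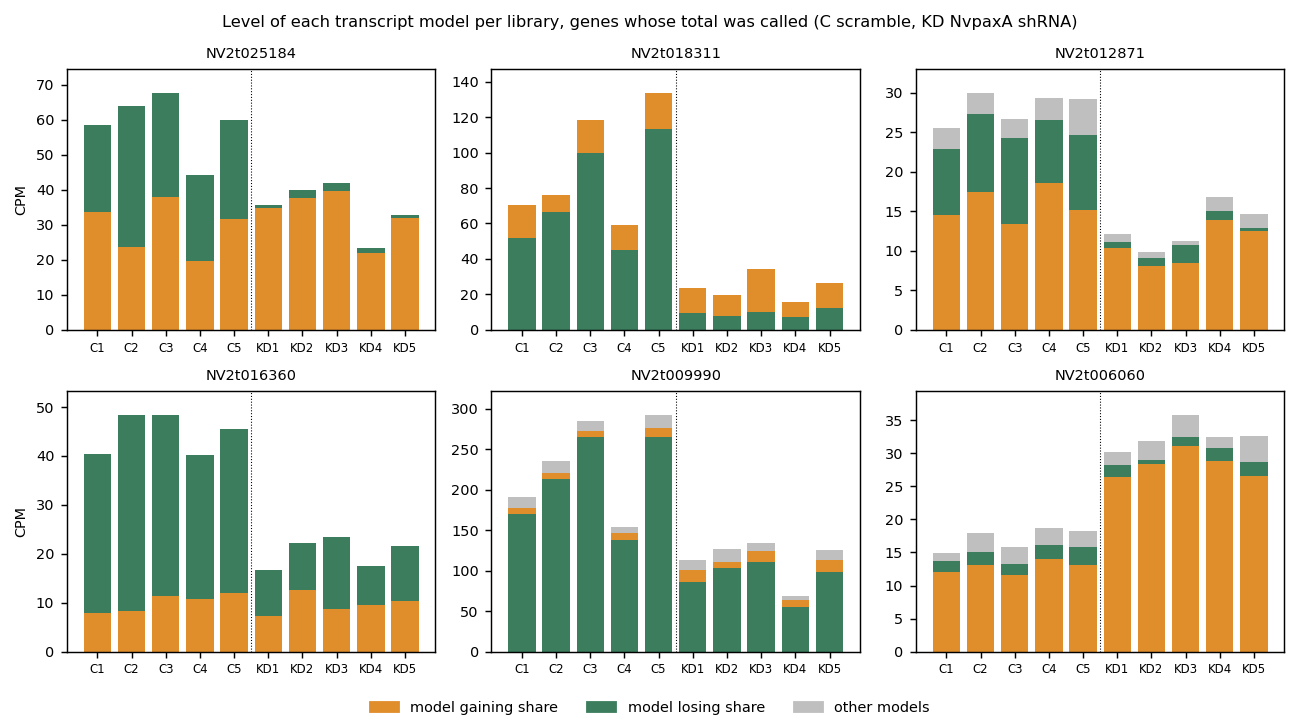
Stacked level of each transcript model (CPM) in each library (C, scramble control; KD, *NvpaxA* shRNA; numbers are replicates) for the 6 members whose total was called, with all other models in grey. In NV2t025184, NV2t018311, NV2t012871, NV2t016360 and NV2t009990 the green part, the model losing share, is smaller after knockdown while the orange part, the model gaining share, differs less; in NV2t006060 the orange part is larger.

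To show which side of each shift changed in level, the leading model and the model with the largest mean difference in the opposite direction were taken in every member. These were 240 models, of which 8 were too low to be tested. The edgeR test over models called 13 lower, all of them losing share, and 7 higher, all gaining share. Among the 10503 tested models of genes past the read minimum the calls were 0.248% lower and 0.2% higher, and among all 25641 models tested 0.554% and 0.261%. As the rule used the same counts, nothing is read from the difference. The losing model alone was called in 11 members, the gaining model alone in 5 and both in 2, NV2t007729 and NV2t022314. In 102 members neither was called. In mean CPM the gaining model was higher and the losing model lower in 112 members, both were lower in 3 and both higher in 5. The 2 models were chosen for opposite share differences, and most totals differed little. The 112 thus follow largely from the choice, and nothing is read from them. Of the 18 members with a called model, 12 had a total that was not called. A total that was not called was not always flat, and its value is given with each gene. The counts were 10 to 14 lower and 4 to 9 higher when 1 library was left out in turn, the 4 higher arising without knockdown replicate 1, 2 or 5 or control replicate 1 or 2. Each of 10 of the lower and 4 of the higher models was called in all of these fits. DESeq2 called 20 lower and 15 higher. Among its 12803 tested models of genes past the read minimum it called 65 lower and 68 higher. With edgeR and 1 library left out, the counts over such models were 21 to 29 lower and 8 to 24 higher.

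**Figure D4:**
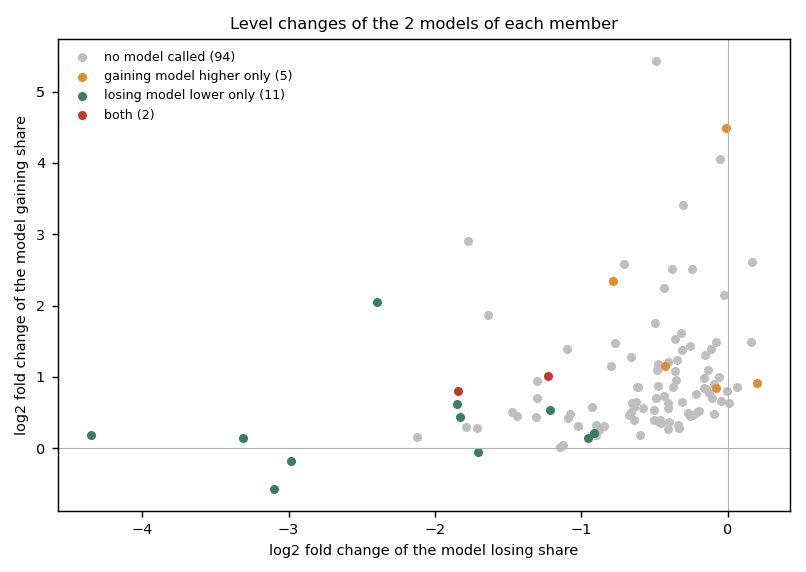
Log2 fold change of the model gaining share (vertical) against that of the model losing share (horizontal), knockdown over control, 1 point for each member with both models tested, coloured by which of them was called. The 11 members with only the losing model called lie at log2 fold changes of −0.91 or below on the horizontal axis, and 2 members have both called.

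NV2t016792 was the most abundant member with a called model. Its total was not called and was 276 ± 25.5 CPM in the controls and 275 ± 44.5 after knockdown (log2 fold change 0.00 ± 0.12). The share of NV2t016792002.1 was 15.9, 15.8, 16.9, 17.6 and 17.8% in the controls and 4.30, 3.84, 5.92, 4.23 and 5.50% after knockdown. The libraries of each group lay close together and far from the other group, with a difference of 13.0 pooled SD against 7.26 in NV2t025184. The model, 3985 bases long against 2683 for NV2t016792004.1, fell from 46.2 ± 1.89 to 12.8 ± 1.38 CPM (−1.85 ± 0.09), and NV2t016792004.1 had 47.7 ± 7.0 and 73.2 ± 11 CPM (0.61 ± 0.13, not called). In its shallowest library, with 4850 reads, the 95% Wilson interval of the share was 5.29 to 6.62%.

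In NV2t021461, NV2t021461005.1 held 23.6, 25.2, 13.2, 15.8 and 10.6% in the controls and 3.80, 2.34, 0.443, 3.56 and 1.94% after knockdown, without overlap. Controls of LA61 (replicates 1 and 2) were above those of LA70, and the mean difference was −21.3 points in LA61 and −11.2 in LA70. The model fell from 51.4 ± 21 to 5.18 ± 2.8 CPM (log2 fold change −3.31 ± 0.47). The total was 288 ± 18 and 217 ± 13.3 CPM (−0.41 ± 0.08), below the 1.5-fold minimum. NV2t021461001.1 had a larger mean difference, from 42.4 ± 10.2% in the controls to 61.9 ± 15.5%, but fell in pair 3 (41.7 to 36.9%). Shares of NV2t021461003.1, 2845 bases long against 2829 for NV2t021461001.1, were unstable. They ran from 5.08 to 28.7% among the controls and from 0 to 35.7% among the knockdown libraries. In NV2t007802, the other member among the 3 of highest level, NV2t007802005.1 held 16.3, 14.1, 18.4, 17.6 and 22.9% in the controls and 35.9, 16.5, 25.9, 25.9 and 48.5% after knockdown. There the groups overlapped, since knockdown replicate 2 lay within the range of the controls.

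The other 8 members with a called model were named after their values were seen. In NV2t022314 the share of NV2t022314001.1 was 39.3, 35.9, 47.8, 33.6 and 34.5% in the controls and 19.99, 23.1, 17.2, 11.7 and 15.7% after knockdown, and that of NV2t022314005.1 was 16.4 ± 2.4% and 36.4 ± 4.8%. NV2t022314001.1 had the highest mean share in the controls and NV2t022314005.1 after knockdown, but they were not the only models to shift. In mean share NV2t022314010.1 went from 27.3% in the controls to 10.3% after knockdown, and NV2t022314011.1 from 4.48% to 17.7%. The total of the gene was not called (log2 fold change −0.12 ± 0.10). NV2t022314005.1 rose from 29.7 to 60.1 CPM (1.01 ± 0.13), and NV2t022314001.1 fell from 69.5 to 29.7 CPM (−1.23 ± 0.24), a call kept in only 2 of the 10 fits that left out a library (−1.37 to −1.09).

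NV2t014011004.1 held 3.55, 7.55, 7.39, 11.9 and 3.81% of NV2t014011 in the controls and 28.0, 21.8, 20.3, 18.3 and 24.6% after knockdown. It rose from 3.99 ± 1.5 to 20.4 ± 6.5 CPM (log2 fold change 2.35 ± 0.33) and did not overlap between the groups. The total of NV2t014011 was 61.8 ± 13.1 CPM in the controls and 89.4 ± 25.6 after knockdown (0.53 ± 0.21, not called). NV2t020396003.1 was nearly absent from the controls of NV2t020396, at 2.17, 0.257, 0, 0.218 and 1.45%, and held 26.9, 11.9, 12.1, 10.3 and 16.2% after knockdown. Its level rose from 1.27 ± 1.5 to 28.9 ± 15 CPM (4.49 ± 0.87), a call kept in 3 of the 10 fits that left out a library (4.17 to 5.12). The total of NV2t020396 was 159 ± 47.6 and 183 ± 52.4 CPM and was not called.

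NV2t003253003.1 held 25.8, 25.8, 25.4, 19.4 and 15.7% in the controls and 5.35, 4.92, 6.38, 8.44 and 6.53% after knockdown, and fell from 25.8 to 7.26 CPM (log2 fold change −1.83 ± 0.16). The total of NV2t003253 was 116 ± 17.6 and 117 ± 15.9 CPM. Smaller falls of the losing model were those of NV2t005918002.1 (−0.91 ± 0.11) and NV2t005319003.1 (−0.95 ± 0.15, called in 9 of the 10 fits without a library). The total of NV2t005918 was 52.3 ± 4.82 CPM in the controls and 38.0 ± 6.68 after knockdown (−0.46 ± 0.12, not called). That of NV2t005319 was 39.3 ± 6.40 and 34.3 ± 5.93 CPM, also not called. In NV2t018585 the shares were tight, 36.7 to 40.8% in the controls and 48.8 to 53.8% after knockdown. NV2t018585001.1 rose from 61.8 to 116 CPM (0.91 ± 0.16, called in 3 of those 10 fits). Its other model, NV2t018585002.1, was also higher in mean, at 96.6 and 111 CPM. The total was 158 ± 20.7 CPM in the controls and 227 ± 46.8 after knockdown, and was not called. NV2t018531001.1 rose from 7.41 to 13.3 CPM (0.84 ± 0.15, called in 2 of those 10 fits). However, its shares overlapped, at 29.3 to 67.9% in the controls and 57.9 to 67.6% after knockdown. The total of NV2t018531 was 16.5 ± 3.20 and 22.0 ± 2.88 CPM and was not called.

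The model with the highest mean share differed between the groups in 30 members, or 25.0%, and in 187 of the 4141 genes, or 4.52%, which includes the members. As the rule selects large share differences, nothing is read from this contrast. The rule set a lower limit on the number of models and of reads. The members had a median of 3 models, as had all genes past the minimum, and up to 13. Exactly 2 models were present in 32.5% of members and 48.1% of those genes. In length, which the rule did not use, the model gaining share was longer than the one losing it in 52 members and shorter in 68, so longer in 43.3%, against 53.7% of all genes past the minimum. The ratio of the longer to the shorter length had a median of 1.09 in the members and 1.11 in all those genes, and lengths were within 10% of each other in 55.0% and 48.1%. Members had a median of 481 reads a library and all those genes 807. A library under 100 reads occurred in 14 members (11.7%) and in 354 genes (8.55%). No test was made of these differences, and the part that read number takes in the shifts was not tested.

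The mean difference reached 10 points in LA61 and in LA70 taken alone in 77 members. Its median was 15.7 points over the 2 pairs of LA61 and 13.8 over the 3 of LA70, and it was larger in LA61 in 73 members and in LA70 in 47. All 5 pairs differed by 5 points or more in 50 members and by 10 or more in 18, while in 27 members at least 1 pair differed by under 2 points. The leading model was at 0 in at least 1 library in 25 members, and it or the model set against it was in 53. Of all models of genes past the read minimum, 16.5 to 20.6% were at 0 in a single library, which is another measure.

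**Figure D5:**
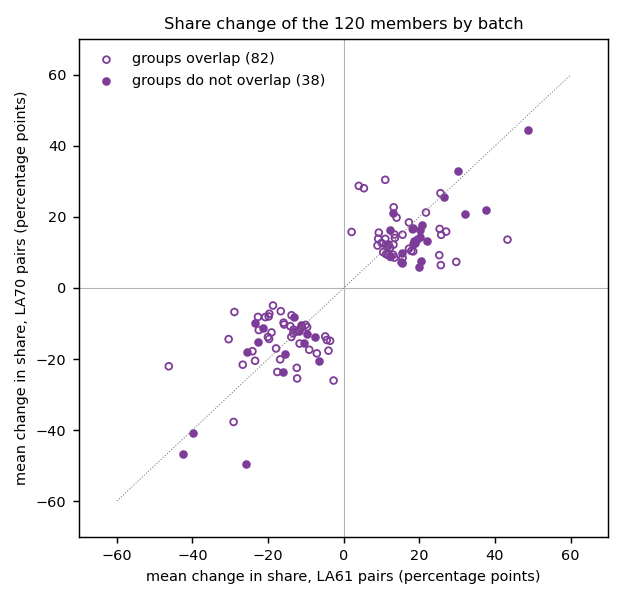
Mean share difference (percentage points, knockdown minus control) of the leading model of each of the 120 members in the LA61 pairs (horizontal) and the LA70 pairs (vertical); filled points are the 38 members whose groups do not overlap. For each member both differences have the same sign, which the rule fixes; 73 members have the larger difference in LA61.

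Just inside the 10-point minimum were NV2t006079 (−10.2 points), NV2t006260 (−10.1) and NV2t001384 (−10.1). Just outside it, with the same direction in all 5 pairs, were NV2t007734 (−9.99 points), NV2t001639 (9.79) and NV2t005710 (−9.71). The standard deviation of the pair differences, 4.26 to 9.52 points in the 3 inside and 3.32 to 5.23 in the 3 outside, was larger than the gap between them. With TPM shares the difference was −3.61 points in NV2t006260 and −17.7 in NV2t006079, and in NV2t006260 it was −6.18 without pair 3 and −4.88 in LA61 alone.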

How the data were processed

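Polyadenylated RNA of 5 *NvpaxA* shRNA and 5 scramble pools of gastrulae was sequenced as 150 bp paired ends, 20037579 to 26883859 estimated counts a library. The authors mapped reads to the Nvec200 genome with Salmon (version, settings and strand option: not given in the sources used here) and deposited an estimated count, TPM, length and effective length for each of 35819 transcript models. Overlapping and near-identical genes are therefore uncertain. TPM served only for an alternative. Genes were the first 10 characters of a model name. No gene name in the RefSeq table matched, and no sequence of these models was used here.

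Shares were computed from estimated counts with pandas 2.3.3. Totals and models, rounded to whole counts, were tested with edgeR 4.0.16 (quasi-likelihood, TMM, filterByExpr, group as the only term) in R 4.3.3, with Benjamini-Hochberg adjustment over all genes or models tested. Calls were set at an adjusted p of at most 0.05 with at least a 1.5-fold difference. Standard errors came from the F statistic. CPM used TMM-scaled library sizes. All libraries of a group differed by more than sampling noise (smallest chi-square per degree of freedom 13.6). The study describes its replicates as paired, and deviations from the group means correlated within every same-numbered pair (0.133, 0.189, 0.434, 0.458 and 0.471). Libraries of different number within a batch were not compared, so these values do not separate pairing from batch. The rule used here compares these pairs.

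Members named are the 10 with the largest mean share difference, those with a called total, the 3 of highest level, any listed cnidocyte gene (none), and the 3 nearest the minimum on each side; the other 8 with a called model were added. Members and lists were chosen with earlier results of these data known. Alternatives were other minimums, TPM shares, RLE scaling, no filter, a replicate block, batch, a length offset, DESeq2 1.42.0, adjusted p alone and leaving out libraries; fits of LA61 and LA70 totals alone were chosen after seeing the data.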

Additional observations from a re-analysis of the deposited data

Results flagged for a closer look

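In NV2t012871 the share of NV2t012871002.1 in knockdown replicate 3 was 74.55%, below the 82.5 to 85.5% of the other 4 knockdown libraries. The gap took 0.731 of the range of the group, above the critical value of 0.71 of Dixon's test for 5 samples. It was the only such library among 38 groups checked, and chance gives about 1 in 20. The library still lay above all 5 controls of that gene.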

How the results depend on the processing

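The 120 members became 258 at a minimum difference of 5 points, 24 at 20 points, 40 when shares had not to overlap, 405 with no replicate block (the mean difference alone), 645 in LA61 alone and 332 in LA70 alone. Without 1 pair in turn they were 176 to 197, of which at least 104 were among the 120. A read minimum of 20 gave 139 members, a minimum of 200 gave 86, and TPM shares gave 126, of which 107 were among the 120. Lower totals numbered 1 instead of 5 in LA70 alone and 3 to 5 without 1 library. Higher totals numbered 3 instead of 1 in LA61 alone and 1 to 2 without 1 library (2 without knockdown replicate 4). Over the 4141 genes past the read minimum, lower totals numbered 3 instead of 17 in LA70 alone and 9 to 16 without 1 library. Higher totals there numbered 79 instead of 15 in LA61 alone and 9 to 19 without 1 library. Nothing is read from the changes in the member counts. With DESeq2, 20 models were lower instead of 13 and 15 higher instead of 7. Over the tested models of genes past the read minimum the counts were 65 instead of 26 and 68 instead of 21. DESeq2 tested 12803 such models and edgeR 10503. Without 1 library the member counts were 10 to 14 and 4 to 9, against 21 to 29 and 8 to 24 over those models. Nothing is read from these counts. With the replicate block, 5 totals were lower and 1 higher, as before, and 14 models were lower and 5 higher. Over the genes past the read minimum the block gave 23 lower and 24 higher totals, instead of 17 and 15. It gave 30 lower and 21 higher models there, instead of 26 and 21. No share difference or total of a named gene changed sign; 147 of 152 share alternatives stayed within the spread of replicates. The 5 that did not were 4 with TPM shares and 1 in LA61 alone. TPM shares moved NV2t016792 from −12.0 to −8.73 points, under the minimum, and NV2t006060 from 12.2 to 19.0. They also moved NV2t006079 from −10.2 to −17.7 and NV2t012871 from 26.0 to 31.7. LA61 alone moved NV2t021461 from −15.3 to −21.3. NV2t006260 went from −10.1 to −3.61 with TPM shares, also under the minimum but within its spread. Other alternatives within the spread also fell under the minimum. NV2t007802 had 9.47 points without pair 5, and NV2t006079 had −8.49 without pair 2 and −8.25 in LA70 alone. NV2t001384 had −7.17 without pair 2, −9.46 without pair 3 and −7.69 in LA70 alone. NV2t006260 had −6.18 without pair 3, −9.69 without pair 5 and −4.88 in LA61 alone. Of 114 alternatives of named totals, 99 kept their call. Under 100 reads in some library were found in 14 members (11.7%) and in 8.55% of genes past the read minimum. What this does to the shares was not tested. Comparison with shuffled labels was not run.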
